A study of Mus musculus with 11 samples.

Results

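Ventricular RNA of mice with and without a cardiomyocyte deletion of Lmnb2 was compared after transverse aortic constriction (TAC), surgery that narrows the aortic arch and raises the pressure the heart pumps against. The 6 TAC libraries of the 11 in the series were used, 3 with the genotype label Lmnb2 KO and 3 with Lmnb2 WT, chosen by their genotype and treatment labels and not by any measured value. The KO mice carried Tnnt2-Cre and Lmnb2Flox/Flox, so that the floxed gene is cut by a Cre recombinase driven by the promoter of cardiac troponin T. For the controls the treatment protocol gives Tnnt2-Cre and no floxed allele, so by that description all groups share the Cre. Mice were 10 to 12 weeks old at surgery, and no source used here gives the interval until the hearts were taken. The other 5 libraries, 3 labelled KO and 2 labelled WT, came from sham-operated mice and entered the fit to set the spread and the interaction. Of the WT-labelled sham libraries, the first has the genotype label Lmnb2 WT and the second WT alone, and no source used here says whether the second carried the Cre. Libraries are called KO TAC 1 to 3 and WT TAC 1 to 3 after their labels.

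Lamin B2, the product of Lmnb2, is one of the filament proteins of the nuclear lamina, the mesh under the inner nuclear membrane that anchors chromatin and nuclear pores. The study concerns the number of pores in cardiomyocyte nuclei and the import of signaling proteins through them under load. Pressure overload is known to switch on natriuretic peptide and fetal sarcomere genes in cardiomyocytes, collagen genes in fibroblasts, and proliferation in non-muscle cells of the heart.

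Lmnb2 itself did not separate the genotype labels after TAC. It measured 9.72, 3.24 and 4.46 CPM (counts scaled to a common library size, here adjusted by the trimmed mean of M-values, TMM) in KO TAC 1 to 3, against 2.86, 2.16 and 6.70 CPM in WT TAC 1 to 3. The groups overlapped, with the highest level in a KO-labelled library. The log2 fold change was 0.57 ± 0.55 (standard error), with an edgeR quasi-likelihood adjusted p of 0.792 and an exact 2-sided permutation p of 0.5 over 20 arrangements, which can give no p below 0.1. Leaving out KO TAC 1 gave -0.066, and leaving out WT TAC 3 gave 1.24. In sham hearts the level was 0.649, 1.81 and 2.43 CPM in the KO-labelled and 4.44 and 3.86 CPM in the WT-labelled libraries. Lmnb2 (ENSMUSG00000062075) lies on chromosome 10 from 80901203 to 80918245, minus strand, in the GRCm38 annotation. No source used here says which exons are floxed, and reads outside them, or from cells other than cardiomyocytes, would not show the deletion. The TAC groups are therefore named by their labels, and each direction below rests on those labels.

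Gh, the gene of growth hormone, which is made in the pituitary, did part the labels. It had 14, 22 and 11 counts in KO TAC 1 to 3 and 0 in each WT TAC library, at least 14.9-fold higher with the WT-labelled group set at 3 counts over the group. The same held in sham hearts, where the KO-labelled libraries measured 0.649 to 2.01 CPM and the WT-labelled libraries 0. Of 10 pituitary genes listed, Gh was the 1 that passed the filter on low counts. Its edgeR adjusted p was 0.747, while DESeq2 gave 0.0279.

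**Figure D1:**
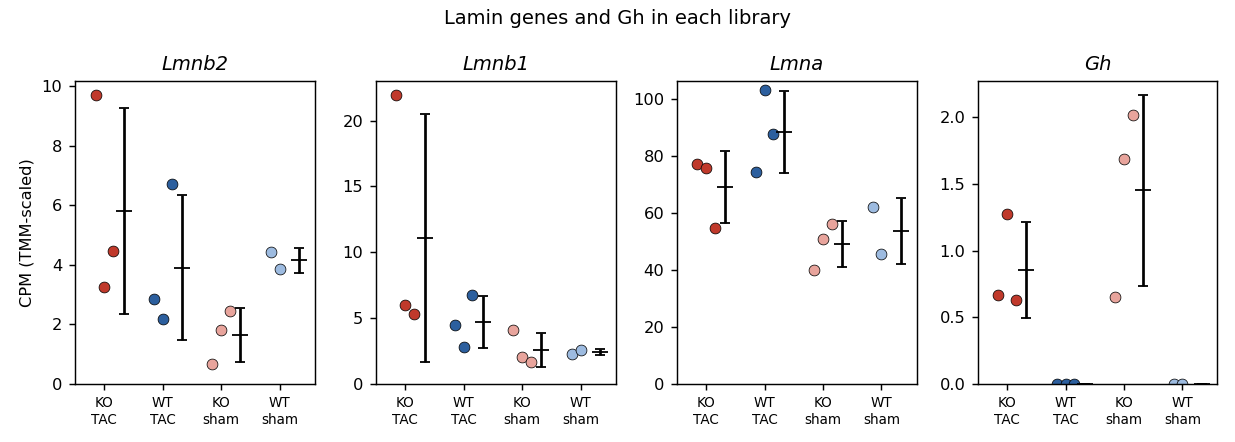
TMM-scaled CPM (y axes, linear, starting at 0) of Lmnb2, Lmnb1, Lmna and Gh in each library of the 4 groups (points), with the mean and SD of each group (black bars). Lmnb2 was highest in KO TAC 1, at 9.72 CPM, and Gh was 0 in all 5 WT-labelled libraries.

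The 6 TAC libraries held 14770383 to 16952248 counts in genes, at which 3 counts equal 0.177 to 0.203 CPM. Cardiomyocyte genes were abundant in all of them, and the summed level of 25 mature cardiomyocyte genes was 66667 to 83156 CPM in KO TAC and 75438 to 89066 CPM in WT TAC libraries. The atrial genes Myl7 and Sln had 21 and 35 counts over all 6 libraries and Bmp10 had 0. Libraries differed within each group. KO TAC 1 and WT TAC 3 had the highest shares of mitochondrially encoded transcripts of their groups, 35.9% and 30.5%, against 22.3% and 25.9% in the other KO TAC and 13.2% and 20.6% in the other WT TAC libraries. They also had the lowest shares of ribosomal protein transcripts, 0.851% and 1.30%, where the other KO TAC libraries had 3.18% and 3.14% and the other WT TAC libraries 6.66% and 3.97%. On the first principal component of log2 CPM (51.5% of the variance) these libraries lay together at 91.1 and 51.8, while WT TAC 1 and 2 lay at -73.9 and -52.0. KO TAC 3 stood apart on the second (21.04%), at 80.0, and had the fewest genes with a count, 16690. The closest pair of libraries was KO TAC 1 and WT TAC 3, with a root mean square log2 difference of 0.71. The groups overlapped in both shares (exact permutation p = 0.4 for each, 2-sided).

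**Figure D2:**
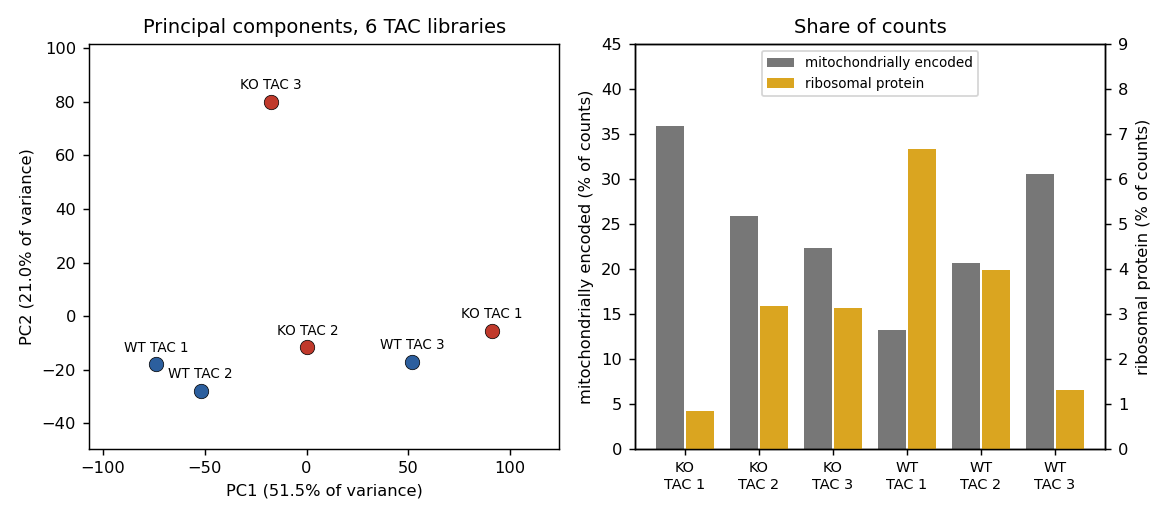
Left, the first and second principal components of log2 CPM of the 6 TAC libraries (KO TAC red, WT TAC blue). Right, the share of counts from mitochondrially encoded genes (grey, left axis) and from ribosomal protein genes (yellow, right axis), both starting at 0. KO TAC 1 and WT TAC 3 lie on the same side of the first component and share a high mitochondrial and a low ribosomal protein share.

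No gene passed the test between KO TAC and WT TAC hearts. Of 14619 genes tested by edgeR with Benjamini-Hochberg adjustment, 0 (0%) had an adjusted p below 0.05, and the smallest was 0.747. At an unadjusted p below 0.05, 489 genes (3.34%) were higher and 441 (3.02%) lower in KO TAC. All 3 KO TAC libraries lay above all 3 WT TAC libraries for 644 genes (4.41%) and below them for 488 (3.34%). The median log2 fold change over all genes was 0.01, with quartiles at -0.34 and 0.34, and the median standard error was 0.39. limma-voom called 0 genes (969 at an unadjusted p below 0.05) and DESeq2 called 6 (1178 at an unadjusted p below 0.05). Those 6 were Il1b and Gh, higher, and Car3, Adipoq and the predicted genes 4833412C05Rik and Gm28515, lower in KO TAC. Without any filter on low counts edgeR called 206 genes, 50 higher and 156 lower. Some of these pass the filter, such as the ribosomal protein gene Rpl39, whose edgeR adjusted p was 0.747 with it and 6.44e-05 without. The log2 fold change of Rpl39 was -1.88 and -1.87, and why the p fell was not tested. With libraries scaled by their totals alone, which moves the median of all genes to 0.14, 564 genes were higher and 253 lower at an unadjusted p below 0.05, and when the share of ribosomal protein transcripts was fitted as a covariate, 452 were higher and 244 lower. Nothing in the labels says how the samples of a group were bred or paired, so p-values measure the spread between these samples. The genes below are described by their values, and none of them is a called difference unless a tool is named.

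The call rate depended on which library was left out. Without WT TAC 3, 3029 genes had an unadjusted p below 0.05 and the smallest adjusted p was 0.0682. The count was 542 when KO TAC 1 was dropped, 439 when WT TAC 1 was and 534 when WT TAC 2 was. With KO TAC 1 and WT TAC 3 dropped together, a choice made after seeing the data, edgeR called 14 genes. The 2 higher in KO TAC were Aplnr, a receptor of the peptide apelin (log2 fold change 3.35, adjusted p = 0.0128), and Myh7 (2.43, adjusted p = 0.0169). The 12 lower included Tnnt3, fast skeletal troponin T (-2.32, adjusted p = 0.00372), Myl9, a myosin light chain of smooth muscle (-2.18, adjusted p = 0.0128), and the chemokine receptor Cxcr6 (-2.77, adjusted p = 0.00792).

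**Figure D3:**
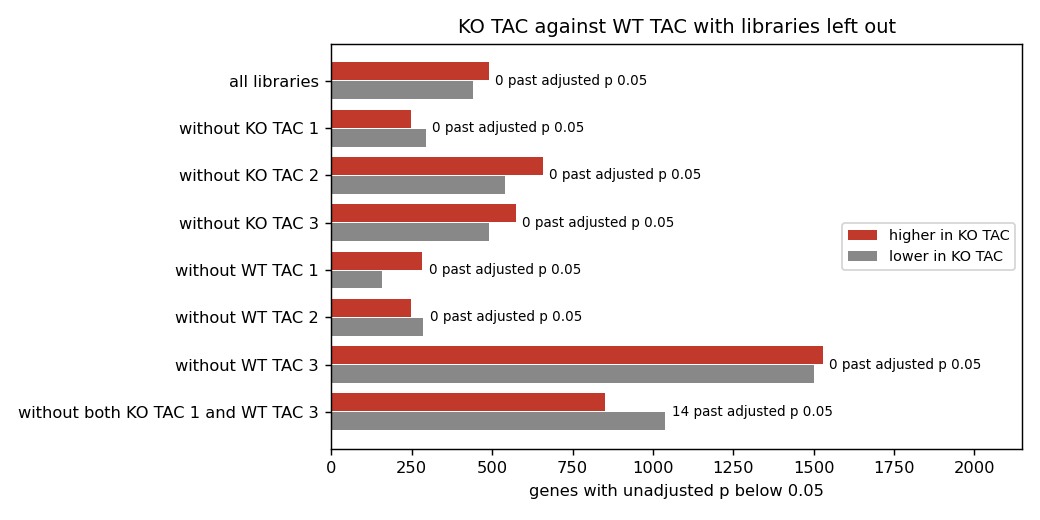
Number of genes with an unadjusted edgeR p below 0.05 (x axis) higher (red) or lower (grey) in KO TAC, with all libraries and with the named libraries left out, and the number past an adjusted p of 0.05 beside each. Leaving out WT TAC 3 gives 1529 higher and 1500 lower genes, against 489 and 441 with all libraries.

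Nuclear envelope, pore and transport genes lay close to the middle of all genes. Of 25 lamina and envelope genes tested, 1 was higher and 0 lower at an unadjusted p below 0.05 (3.34% and 3.02% of all genes tested), with a median log2 fold change of 0.13. That gene was Lmnb1, the other B-type lamin, with 22.0, 6.01 and 5.26 CPM in KO TAC 1 to 3, against 4.47, 2.80 and 6.75 CPM in WT TAC 1 to 3. Only KO TAC 1 stood above the WT TAC range, and the log2 fold change was 1.24 ± 0.56 (edgeR adjusted p = 0.747, exact permutation p = 0.3). Lmna, the gene of lamins A and C, measured 77.1, 75.9 and 54.6 CPM in KO TAC, against 74.5, 103.2 and 87.6 CPM in WT TAC libraries, with a log2 fold change of -0.35 ± 0.25. The inner membrane protein genes Sun1 and Sun2, which link the lamina to the cytoskeleton, had log2 fold changes of 0.13 ± 0.20 and 0.10 ± 0.22.

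Of 28 nucleoporin genes, which build the nuclear pore, 0 were higher and 1 lower at an unadjusted p below 0.05. Of all genes tested, 3.34% and 3.02% were, and the nucleoporin median was 0.02. Nup88, a cytoplasmic-face nucleoporin, had 41.6, 38.9 and 51.7 CPM in KO TAC 1 to 3 and 78.2, 55.5 and 56.8 CPM in WT TAC 1 to 3. The groups did not overlap, and the log2 fold change was -0.53 ± 0.23. Nup85, of the Y complex of the pore, lay the other way without overlap, with 14.7, 14.7 and 24.7 CPM in KO TAC and 12.0, 13.8 and 10.8 CPM in WT TAC libraries. Without overlap, 1 of the 28 lay above and 1 below, where 4.41% and 3.34% of all genes tested did. Of 31 importin, exportin and Ran cycle genes, 1 was higher and 0 lower, with a median of -0.04. The exportin gene Xpo4 measured 5.15, 8.21 and 9.32 CPM in KO TAC and 3.57, 4.50 and 3.89 CPM in WT TAC libraries, a log2 fold change of 0.92 ± 0.33. Kpnb1, importin beta, differed by 0.21 ± 0.29.

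Interferon response genes were mostly higher in KO TAC. Of 32 tested genes of this antiviral programme, 30 had a positive log2 fold change, 8 were higher and 0 lower at an unadjusted p below 0.05, and 4 lay above WT TAC without overlap. Of all 14619 genes tested, 7448 had a positive sign, 3.34% were higher at that p and 4.41% lay above without overlap. The median was 0.57, where the median of all genes was 0.01, and the summed level was 476 to 596 CPM in KO TAC and 363 to 450 CPM in WT TAC libraries. Gbp3, a guanylate-binding GTPase, had 20.2, 18.1 and 17.4 CPM in KO TAC 1 to 3 and 7.27, 7.19 and 13.3 CPM in WT TAC 1 to 3. All KO TAC values lay within a narrow band above the WT TAC range, with a log2 fold change of 1.003 ± 0.31 (unadjusted p = 0.00727 in edgeR's test). Irf9, the DNA-binding part of the factor that interferon activates, had 22.8, 20.4 and 28.4 CPM in KO TAC and 12.1, 13.6 and 17.4 CPM in WT TAC libraries. Cmpk2, a mitochondrial nucleotide kinase, had 13.01, 12.6 and 11.4 CPM in KO TAC and 3.46, 2.63 and 10.2 CPM in WT TAC libraries. In both genes, as in Rtp4, the WT TAC library nearest to KO TAC was WT TAC 3. Isg15, a ubiquitin-like protein, differed by 0.46 ± 0.38 and overlapped. Ifi27l2a and Ifih1 were the 2 with a negative sign, at -0.58 and -0.20.

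The number of interferon genes at an unadjusted p below 0.05 depended on single libraries. It was 4 when KO TAC 1 was dropped, 3 when WT TAC 1 was, 2 when WT TAC 2 was, 16 when WT TAC 3 was, 14 when KO TAC 1 and WT TAC 3 were dropped together, and 0 in the libraries of males alone, whose titles end in M. Of all genes tested, 1.72%, 1.96%, 1.72%, 10.55%, 5.92% and 1.25% were higher at that p in these settings, in the same order. The interferon median stayed between 0.41 and 0.84 whichever TAC library was left out. In sham hearts the median of KO against WT was 0.32, and for the interaction it was 0.30. In bulk RNA, fewer cells of a type and less RNA per cell cannot be told apart.

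Interferon acts on its targets through a known promoter element, and the promoters of Gbp3 and Rsad2 are shown because they hold it. They were picked for that among the 6 list members at an unadjusted p below 0.05 that have a window, and the windows of the other 4, Irf9 and Cmpk2 among them, held no match. RefSeq promoter windows (250 bases before to 50 after the start, build GRCm38.p6) were searched on both strands for GAAANNGAAA, the core of the interferon-stimulated response element or its reverse complement. Capitals mark the matches. Gbp3 (chr3:142559794-142560093, plus strand) holds 2 overlapping matches and Rsad2, an antiviral enzyme (chr12:26456403-26456702, minus strand), holds 1.
Gbp3: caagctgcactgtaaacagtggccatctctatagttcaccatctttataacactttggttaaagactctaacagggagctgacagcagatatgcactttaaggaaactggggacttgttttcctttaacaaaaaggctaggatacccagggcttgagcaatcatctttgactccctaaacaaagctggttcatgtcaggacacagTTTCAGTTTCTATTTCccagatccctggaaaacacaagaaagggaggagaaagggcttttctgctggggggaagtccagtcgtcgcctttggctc
Rsad2: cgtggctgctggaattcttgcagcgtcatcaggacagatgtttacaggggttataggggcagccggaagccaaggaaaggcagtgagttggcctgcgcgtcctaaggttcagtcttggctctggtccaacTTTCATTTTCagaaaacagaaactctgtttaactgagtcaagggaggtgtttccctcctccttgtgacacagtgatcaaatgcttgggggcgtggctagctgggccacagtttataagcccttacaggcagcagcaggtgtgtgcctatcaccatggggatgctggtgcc
Of the list's 23 genes with a RefSeq window, 13 held a match (56.5%), against 3.09% of 10944 tested genes and 3.49% of all 27025 windows. Among the 6 with a window that were at an unadjusted p below 0.05, 2 held a match (33.3%). A match describes the letters in the window only.

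Cell cycle genes lay mostly higher in KO TAC, and highest in KO TAC 1. Of 40 genes tested, 34 had a positive log2 fold change, 16 were higher and 0 lower at an unadjusted p below 0.05, and the median was 0.80. In 7 genes all KO TAC values lay above all WT TAC values, and in 1, the G1 cyclin gene Ccne1, all lay below. Over all genes tested, 3.34% were higher at that p, 4.41% lay above without overlap and 3.34% below. Tpx2, a spindle assembly factor, had 27.6, 7.45 and 8.52 CPM in KO TAC 1 to 3 and 3.34, 1.75 and 6.49 CPM in WT TAC 1 to 3, with a log2 fold change of 1.91 ± 0.55. KO TAC 1 stood far above the rest and KO TAC 2 and 3 just above WT TAC 3. Nusap1, a spindle microtubule protein, had 19.3, 7.92 and 21.2 CPM in KO TAC and 7.09, 3.798 and 8.83 CPM in WT TAC libraries. Prc1, which bundles microtubules of the central spindle, had 40.6, 10.3 and 25.0 CPM in KO TAC and 7.15, 6.25 and 13.6 CPM in WT TAC libraries. The mitotic kinase gene Aurka had 7.96, 4.22 and 4.40 CPM in KO TAC and 2.26, 2.69 and 2.13 CPM in WT TAC libraries, a log2 fold change of 1.23 ± 0.45 without overlap. Mki67, the proliferation marker Ki-67, had 71.5, 11.9 and 13.6 CPM in KO TAC and 8.22, 4.62 and 17.2 CPM in WT TAC libraries, and overlapped. The S-phase gene Pcna, the clamp of DNA polymerase, differed by -0.23.

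Without KO TAC 1, 28 of the 40 cell cycle genes had a positive sign, 1 was at an unadjusted p below 0.05 and the median was 0.29. The count was 10 when WT TAC 1 was dropped, 5 when WT TAC 2 was, and 7, with a median of 0.35, when KO TAC 1 and WT TAC 3 were dropped together. Fitting the share of ribosomal protein transcripts as a covariate left 8, and males alone left 7. The median log2 CPM of the endothelial markers, each centred on its mean over the 6 libraries, was 0.69 in the same library, against 0.03 and -0.03 in the other KO TAC and -0.42, -0.55 and 0.38 in the WT TAC libraries. Kdr, a receptor of vascular endothelial growth factor, had 194.5, 55.0 and 57.7 CPM in KO TAC and 38.1, 20.4 and 77.4 CPM in WT TAC libraries. The summed CPM of the 20 markers ran another way, with 4031, 4458 and 4204 CPM in KO TAC 1 to 3 and 4068, 3182 and 3646 CPM in WT TAC 1 to 3, so that KO TAC 1 was the lowest of its group. Of the 20, 15 had a positive and 5 a negative sign, and none was at 0 CPM. At an unadjusted p below 0.05, Kdr was higher and Rgcc lower (3.34% and 3.02% of all genes tested). Over 22 alternatives the log2 fold change ran from 0.27 to 1.85 for Kdr and from -1.57 to -0.66 for Rgcc. The median of the 20 was 0.43. It was 0.10 when KO TAC 1 was dropped and 0.84, with 10 higher, when WT TAC 3 was. Without WT TAC 3, 10.55% of all genes tested were higher at that p. The part of these markers in the cell cycle values was not tested.

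The promoters of Aurka (chr2:172370521-172370820, minus strand) and Kif11 (chr19:37376132-37376431, plus strand), a spindle motor with 17.3, 6.82 and 7.44 CPM in KO TAC and 5.72, 3.798 and 4.57 CPM in WT TAC libraries, are shown because they hold an element of cell cycle promoters, as did most of the members at an unadjusted p below 0.05. Capitals mark TTTGAA, the core of the cell cycle genes homology region, or TTCAAA where it lies on the other strand.
Aurka: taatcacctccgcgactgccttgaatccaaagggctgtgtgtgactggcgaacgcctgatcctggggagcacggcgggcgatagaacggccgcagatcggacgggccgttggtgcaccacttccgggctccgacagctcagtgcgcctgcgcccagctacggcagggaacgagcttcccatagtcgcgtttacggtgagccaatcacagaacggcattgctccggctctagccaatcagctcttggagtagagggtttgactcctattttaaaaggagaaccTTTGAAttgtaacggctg
Kif11: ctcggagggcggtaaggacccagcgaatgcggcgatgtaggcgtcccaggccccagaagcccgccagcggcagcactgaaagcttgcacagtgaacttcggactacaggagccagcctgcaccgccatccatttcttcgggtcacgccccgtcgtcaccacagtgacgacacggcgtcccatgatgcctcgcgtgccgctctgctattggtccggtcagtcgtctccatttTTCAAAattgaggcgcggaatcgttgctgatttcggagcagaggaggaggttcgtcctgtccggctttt
Of the list's 32 genes with a window, 16 held a match (50%), and of the 13 at an unadjusted p below 0.05, 11 did (84.6%), against 11.9% of the tested genes and 18.1% of all windows. The members at that p are mostly genes of mitosis.

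**Figure D4:**
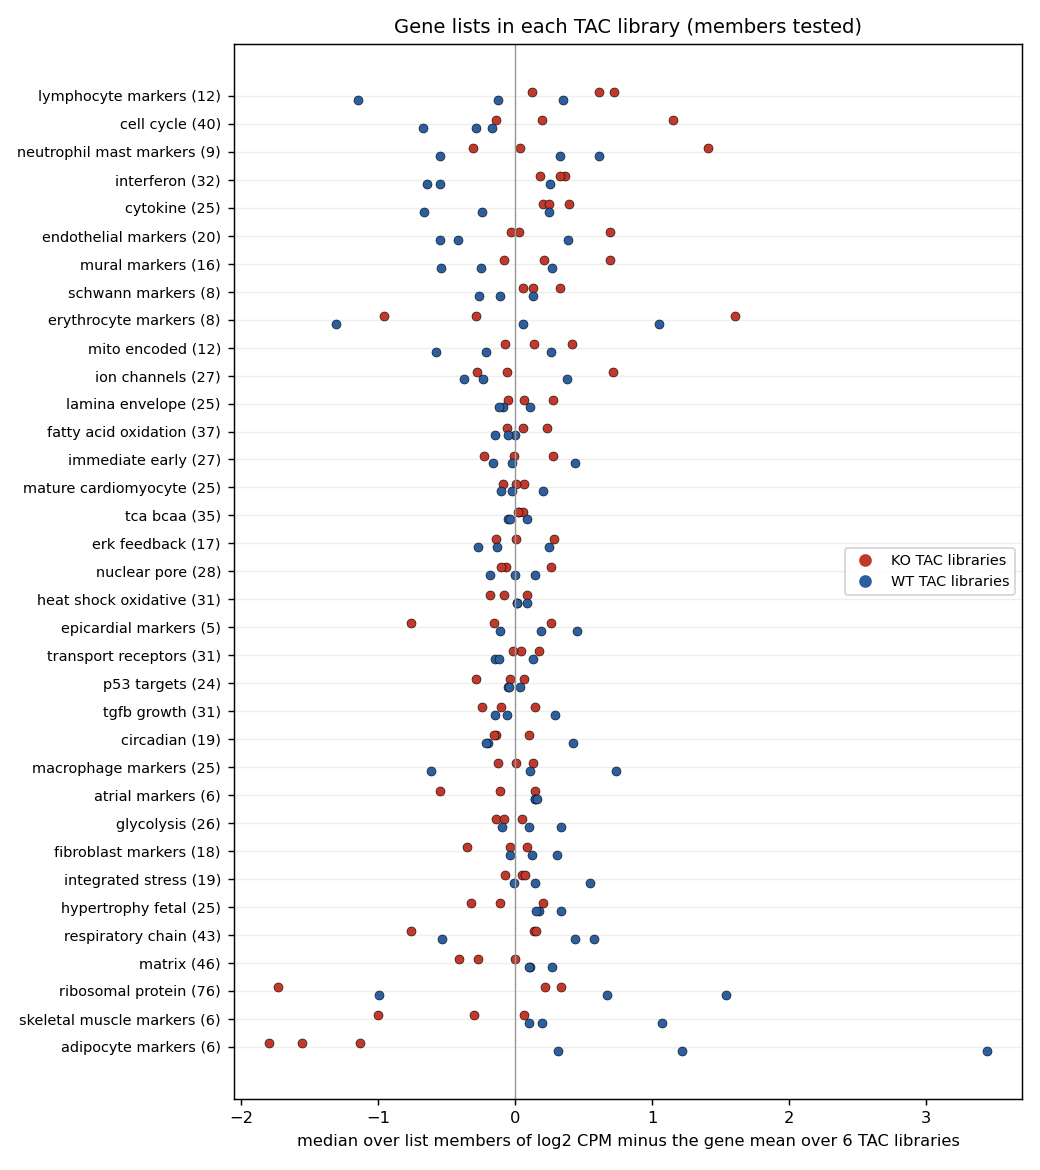
Median over list members of log2 CPM minus the gene's mean over the 6 TAC libraries (x axis, log2), for each list with at least 5 tested members, with KO TAC libraries in red above WT TAC libraries in blue. Lists run down the page by their median log2 fold change, and the number tested is in brackets. For interferon the KO TAC points lie at 0.18 to 0.36 with WT TAC 3 among them at 0.25. The adipocyte, cytokine, epicardial, erythrocyte, growth factor and lymphocyte lists hold members that passed the filter on low counts only with a single TAC group. The places of those lists are not read as a direction.

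Extracellular matrix genes were mostly lower in KO TAC. Of 46 tested, 35 had a negative log2 fold change, 0 were higher and 7 lower at an unadjusted p below 0.05, 7 lay below WT TAC without overlap, and the median was -0.43. Over all genes tested, 3.02% were lower at that p and 3.34% lay below without overlap. The summed level was 7886 to 9274 CPM in KO TAC and 9866 to 13952 CPM in WT TAC libraries. Loxl3, an enzyme that crosslinks collagen, had 9.25, 15.6 and 17.2 CPM in KO TAC 1 to 3 and 19.5, 34.5 and 21.9 CPM in WT TAC 1 to 3, a log2 fold change of -0.85 ± 0.33. Col5a2, a fibril collagen chain, had 136, 192 and 167 CPM in KO TAC and 385, 246 and 226 CPM in WT TAC libraries, with WT TAC 1 the highest. Fbn1, the microfibril protein fibrillin-1, had 136, 167 and 148 CPM in KO TAC and 350, 193 and 192 CPM in WT TAC libraries. Lox, another crosslinking enzyme, overlapped, with 30.3, 119.8 and 130.7 CPM in KO TAC and 333.5, 243.0 and 100.4 CPM in WT TAC libraries. Col1a1, the main fibril collagen chain, had a log2 fold change of 0.06 ± 0.48 in the same libraries, and Postn, the injury matrix protein periostin, -0.73 ± 0.37.

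The matrix count was 1 when KO TAC 1 or WT TAC 1 was dropped, 3 when KO TAC 3 or WT TAC 2 was, 2 with libraries scaled by their totals and 11 when KO TAC 1 and WT TAC 3 were dropped together. Of all genes tested, 2.02%, 1.08%, 3.38%, 1.98%, 1.73% and 7.23% were lower at that p in these settings, in the same order. All 46 signs were negative when KO TAC 1 was dropped, and 28 were when WT TAC 3 was. Fibroblast markers, 18 tested, summed to 2913 to 3551 CPM in KO TAC and 3708 to 6621 CPM in WT TAC libraries, with a median of -0.23. Of these markers, 0 were higher and 1 lower at an unadjusted p below 0.05 (3.34% and 3.02% of all genes tested). None of the tested markers was at 0 in a whole group, and their part in the matrix values was not tested.

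Growth factor and TGF-beta target genes did not share a direction, with 11 positive and 20 negative signs among 31 and a median of -0.08. At an unadjusted p below 0.05, 1 was higher and 3 were lower (3.34% and 3.02% of all genes tested). Igfbp3, which binds insulin-like growth factors, had 16.3, 12.1 and 15.8 CPM in KO TAC and 30.4, 32.3 and 28.2 CPM in WT TAC libraries, a log2 fold change of -1.04 ± 0.30. Every KO TAC value lay below every WT TAC value, which the rule that picked Igfbp3 among the lower genes asked for. Edn1, the vasoconstrictor endothelin-1, had 7.15, 6.93 and 7.21 CPM in KO TAC and 9.47, 11.4 and 11.1 CPM in WT TAC libraries. Ccn2, the connective tissue growth factor gene of the hypertrophy list, had 81.8, 361.3 and 445.3 CPM in KO TAC and 1093.7, 583.8 and 547.3 CPM in WT TAC libraries.

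Of 8 genes of the response to load, none separated the groups. Nppa, atrial natriuretic peptide, had 98.5, 1633 and 673 CPM in KO TAC 1 to 3 and 1197, 1034 and 1222 CPM in WT TAC 1 to 3. Its log2 fold change was -0.52 ± 0.69, and KO TAC 1 was low beside the other 5. Nppb, B-type natriuretic peptide, had 279.8, 2194 and 2240 CPM in KO TAC and 7922, 4335 and 1519 CPM in WT TAC libraries, a log2 fold change of -1.55 ± 0.73 (unadjusted p = 0.0549, edgeR adjusted p = 0.747). Myh7, the slow fetal myosin heavy chain, had 293, 469 and 695 CPM in KO TAC and 111, 101 and 1716 CPM in WT TAC libraries. Its fold change of -0.40 ± 0.85 was decided by WT TAC 3, since it was 2.19 without that library and 0.78 in limma-voom. Myh6, the adult fast myosin, differed by 0.53 ± 0.57 and was highest in KO TAC 1 and WT TAC 3. Acta1, Ankrd1 and Rcan1, a skeletal actin, a strain-responsive nuclear protein and a calcineurin target, differed by 0.08 ± 0.47, 0.03 ± 0.41 and -0.16 ± 0.27. Nmrk2, a nicotinamide riboside kinase, had 41.0, 101 and 42.1 CPM in KO TAC and 197, 174 and 73.0 CPM in WT TAC libraries, -1.27 ± 0.46.

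Over the hypertrophy and fetal list of 25, 18 signs were negative and the median was -0.29. At an unadjusted p below 0.05, 0 genes were higher and 4 lower (3.34% and 3.02% of all genes tested). Tubb2b, a beta-tubulin, had 4.81, 5.55 and 3.66 CPM in KO TAC and 11.4, 22.6 and 8.41 CPM in WT TAC libraries, -1.59 ± 0.47. Des, the muscle intermediate filament desmin, had 1115, 2416 and 2260 CPM in KO TAC and 3042, 4187 and 2702 CPM in WT TAC libraries. Tnnt2, whose promoter drives the Cre, is on the mature cardiomyocyte list and not on this one. It had 4864, 6197 and 6301 CPM in KO TAC and 8042, 10371 and 6696 CPM in WT TAC libraries, without overlap, -0.53 ± 0.27. Without WT TAC 3 the hypertrophy and fetal list had 4 genes higher and 6 lower, where 10.55% and 10.35% of all genes tested were.

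Ion channel genes had 20 positive signs among 27 and a median of 0.24, which was -0.18 without KO TAC 1. At an unadjusted p below 0.05, 3 were higher and 0 lower (3.34% and 3.02% of all genes tested). Scn4b, a sodium channel subunit, had 21.9, 1.21 and 1.20 CPM in KO TAC and 0.536, 0.877 and 2.34 CPM in WT TAC libraries, so that KO TAC 1 alone set its fold change of 2.68 ± 0.98. Kcnj2, the inward rectifier channel, had 34.0, 19.4 and 16.99 CPM in KO TAC and 12.0, 13.1 and 16.4 CPM in WT TAC libraries without overlap.

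Fat cell genes had few or no counts in KO TAC libraries. Of 10 listed markers 6 passed the filter on low counts, which asks for 2 libraries at 0.615 CPM or more. Adipoq and Cidec passed it only with the WT TAC libraries, in which they are high, so no count or summed level over the tested markers is given. Adipoq, the fat cell hormone adiponectin, had 1, 0 and 0 counts in KO TAC 1 to 3 and 23, 8 and 133 in WT TAC 1 to 3, a ratio of WT over KO of 172 with a 95% counting interval of 30.5 to 6837. Cidec, a lipid droplet protein, had 0 counts in KO TAC and 12, 6 and 56 in WT TAC libraries, at least 25.9-fold lower in KO TAC with that group set at 3 counts. Car3, carbonic anhydrase 3, had 4, 0 and 1 counts in KO TAC and 66, 38 and 689 in WT TAC libraries. Cfd, the fat cell protease adipsin, had 0, 0 and 8 counts in KO TAC and 35, 26 and 447 in WT TAC libraries. Scd1, a fatty acid desaturase also expressed in other cells, had 13.5, 10.5 and 13.2 CPM in KO TAC and 23.8, 18.1 and 42.2 CPM in WT TAC libraries. WT TAC 3 was the highest for these 5 genes. In sham hearts Cidec reached the 0.615 CPM of the filter in 0 libraries, and Adipoq in 0 KO-labelled and 1 WT-labelled library. Car3 and Cfd each reached it in 2 KO-labelled and 1 WT-labelled sham library. The low counts were thus not confined to KO TAC. Pnpla3, a lipase-like protein, overlapped and differed by 0.20 ± 0.60. Ucp1 had 0 counts in all 6 TAC libraries. These intervals and floors cover counting error only.

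All 6 fast skeletal muscle genes tested had a negative sign, 3 were lower at an unadjusted p below 0.05, and the median was -1.11. Of all 14619 genes tested, 7171 had a negative sign and 3.02% were lower at that p. Pvalb, among the 6, passed the filter on low counts only with the KO sham libraries. In males alone 5 genes were tested, with 1 positive and 4 negative signs and 1 lower at that p, where 1.05% of all genes were. Tnnt3 had 0.858, 15.7 and 14.7 CPM in KO TAC and 76.4, 72.5 and 8.00 CPM in WT TAC libraries, with the lowest levels of each group in KO TAC 1 and WT TAC 3. Mylpf, a fast myosin light chain, had 0.572, 0.462 and 0.515 CPM in KO TAC and 3.69, 0.818 and 0.779 CPM in WT TAC libraries. The 12 listed markers include 6 that did not pass the filter. Their summed level was 20.6 to 36.5 CPM in KO TAC and 32.9 to 120 CPM in WT TAC libraries. Mesothelial Msln had 0, 2 and 0 counts in KO TAC and 25, 19 and 6 in WT TAC libraries, a ratio of WT over KO of 26.2 (95% counting interval 6.89 to 223). Msln passed the filter only with WT TAC libraries. The origin of the fat cell, skeletal and mesothelial transcripts was not tested.

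Inflammatory genes were led by Il1b, the cytokine interleukin 1 beta. It had 43, 54 and 57 counts in KO TAC 1 to 3 and 3, 5 and 6 in WT TAC 1 to 3, which is 2.05, 3.12 and 3.26 CPM in KO TAC and 0.179, 0.292 and 0.312 CPM in WT TAC libraries. The log2 fold change was 3.38 ± 0.64, with an adjusted p of 0.747 in edgeR and 0.00934 in DESeq2. In sham hearts Il1b had 0.741, 0.362 and 0.764 CPM in KO-labelled and 2.38 and 0.709 CPM in WT-labelled libraries, and the interaction was 4.71 ± 0.90, with an adjusted p of 0.992 in edgeR and 0.0114 in DESeq2. Of the 25 cytokine genes tested, Il1b alone was at an unadjusted p below 0.05. Lif, Ccl3, Cxcl5 and Ccl4 passed the filter only with KO TAC libraries, so that the median over the tested genes, 0.49, is not read as a direction. It was 0.12 with filter and fit on the 6 TAC libraries alone and 0.23 without KO TAC 1. Without WT TAC 3 the list had 5 genes higher and 3 lower, where 10.55% and 10.35% of all genes tested were.

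Macrophage markers lay in both directions. Of 25, 3 were higher and 3 lower at an unadjusted p below 0.05 (3.34% and 3.02% of all genes tested), with a median of -0.14. That median turned to 0.24, with 14 positive signs, when WT TAC 2 was dropped, and was -0.38, with 8 lower, when WT TAC 3 was. Without WT TAC 3, 10.35% of all genes tested were lower at that p. Ccr2, the receptor that marks recruited monocytes, had 20.4, 22.5 and 9.72 CPM in KO TAC and 6.14, 7.30 and 7.58 CPM in WT TAC libraries, 1.32 ± 0.41. Cx3cr1, the fractalkine receptor, had 13.6, 11.7 and 4.98 CPM in KO TAC and 2.86, 3.45 and 4.57 CPM in WT TAC libraries. Timd4, a receptor of resident macrophages for dying cells, had 1.62, 0.289 and 2.35 CPM in KO TAC and 0.417, 0.175 and 0.208 CPM in WT TAC libraries, 2.39 ± 0.75, with KO TAC 2 inside the WT TAC range. Mrc1, a mannose receptor also of resident macrophages, and Lgals3 and Gpnmb, which phagocytes with a high lipid load express, were the lower ones. Gpnmb had 1.76, 2.14 and 1.37 CPM in KO TAC and 3.69, 17.7 and 1.61 CPM in WT TAC libraries, with WT TAC 2 the highest. The macrophage markers summed to 723 to 1835 CPM in KO TAC and 602 to 3045 CPM in WT TAC libraries.

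Lymphocyte markers were scarce, and 8 of 20 did not pass the filter. Gzmb, Cd4 and Cd79a passed it only with KO TAC libraries, so no count or summed level over the 12 tested is given. Igkc, the kappa light chain, had 5.29, 12.1 and 4.52 CPM in KO TAC and 2.38, 3.68 and 4.52 CPM in WT TAC libraries, so that the groups met at KO TAC 3 and WT TAC 3. Kit, a stem cell factor receptor found on mast cells, had 7.91, 1.79 and 4.12 CPM in KO TAC and 0.953, 0.409 and 1.51 CPM in WT TAC libraries, while 5 of 14 neutrophil and mast cell markers did not pass the filter and Elane, Ly6g and Ms4a2 had 1 count each over the 6 libraries. The part of these immune markers in the interferon and Il1b values was not tested.

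Of all 14619 genes tested, 4.41% lay above and 3.34% below without overlap at any level. At 1 CPM or more, with predicted, ribosomal protein and mitochondrially encoded genes aside, 519 higher and 366 lower genes did. The first 12 higher and 11 of the first 12 lower by p are plotted. They were picked for a small p and no overlap, so these traits, and a small spread beside the fold change, follow from the rule. Fam13c had 6.53, 6.13 and 5.32 CPM in KO TAC 1 to 3 and 2.68, 2.63 and 2.54 CPM in WT TAC 1 to 3, with a spread within each group that was small beside its log2 fold change of 1.19 ± 0.31. Bcl6b, a transcriptional repressor, had 52.9, 16.9 and 27.1 CPM in KO TAC and 4.77, 8.88 and 12.8 CPM in WT TAC libraries, 1.87 ± 0.43. Cep55, which acts in the last step of cell division, had 12.8, 6.13 and 14.4 CPM in KO TAC and 4.11, 2.10 and 3.79 CPM in WT TAC libraries, 1.73 ± 0.41. Mndal, of the interferon-inducible p200 family, had 33.6, 29.6 and 42.8 CPM in KO TAC and 12.9, 11.8 and 23.8 CPM in WT TAC libraries, 1.13 ± 0.30. Fbp2, the muscle fructose-bisphosphatase, had 10.1, 5.26 and 9.72 CPM in KO TAC and 2.32, 4.32 and 3.69 CPM in WT TAC libraries, and Srrm4, a splicing factor of neurons, 12.2, 2.37 and 2.40 CPM in KO TAC and 1.01, 0.760 and 1.30 CPM in WT TAC libraries. In sham hearts Srrm4 measured 8.25 to 14.7 CPM in KO-labelled and 11.4 and 17.2 CPM in WT-labelled libraries, and the TAC libraries other than KO TAC 1 lay below the sham range.

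Dpyd, which breaks down pyrimidines, had 4.00, 3.64 and 3.89 CPM in KO TAC and 11.9, 7.13 and 7.01 CPM in WT TAC libraries, -1.17 ± 0.29. Map6, a microtubule stabiliser, had 3.10, 3.70 and 2.92 CPM in KO TAC and 5.72, 12.0 and 7.27 CPM in WT TAC libraries, -1.36 ± 0.38. Rab40b, a small GTPase, had 2.14, 2.89 and 1.43 CPM in KO TAC and 8.70, 5.26 and 4.10 CPM in WT TAC libraries, -1.48 ± 0.41. The other higher genes were Dleu2, Amt, Ybx2, Kit and Tppp, at 1.23 to 2.26, and the other lower ones Zfp442 and Izumo4, at -1.83 and -1.70, beside the fat cell, Igfbp3 and Tubb2b values above.

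**Figure D5:**
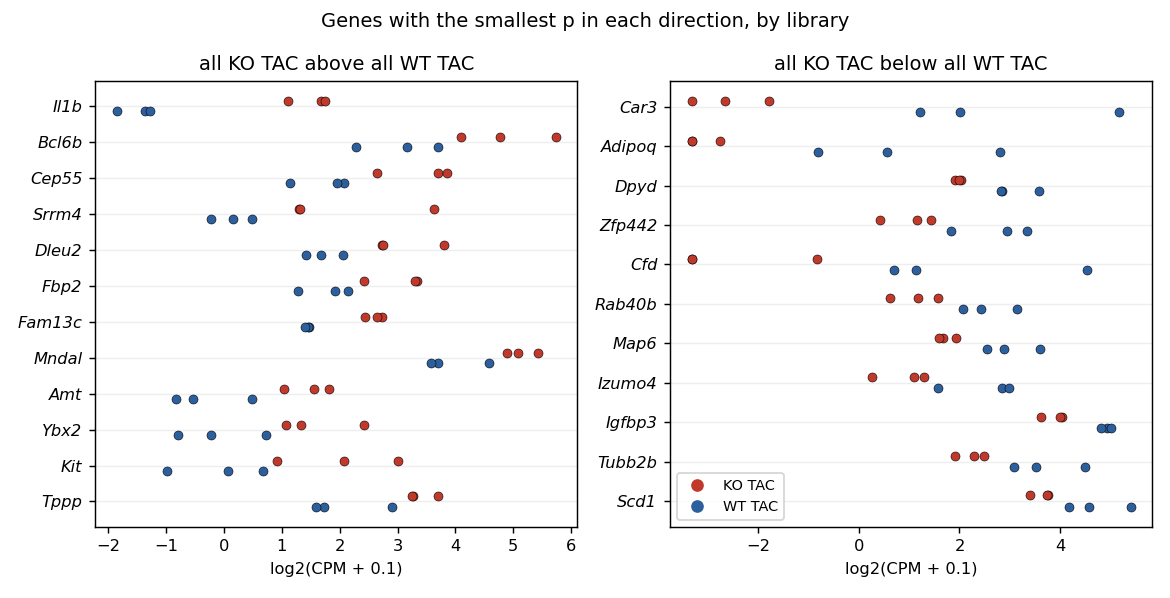
log2(CPM + 0.1) of the 12 genes with the smallest p that lay above (left) and of 11 that lay below (right) in KO TAC without overlap, in each KO TAC (red) and WT TAC (blue) library. Fat cell genes Car3, Adipoq and Cfd show the widest gap and Fam13c the tightest groups. None passed the edgeR adjusted threshold.

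Ribosomal protein and respiratory chain genes mostly had a negative sign in KO TAC, but their share at an unadjusted p below 0.05 lay under that of all genes. Of all 14619 genes tested, 7171 had a negative and 7448 a positive sign, and 3.34% were higher and 3.02% lower at that p. Of 76 ribosomal protein genes, 75 had a negative sign, 0 were higher and 1 lower at an unadjusted p below 0.05, and the median was -0.90. That gene, Rpl3, had 106, 247 and 215 CPM in KO TAC and 712, 450 and 168 CPM in WT TAC libraries. The summed level was 6874 to 27756 CPM in KO TAC and 10995 to 64947 CPM in WT TAC libraries, and KO TAC 1 and WT TAC 3 were the lowest of their groups. The median was -0.18 without WT TAC 1, while 46 were lower, with a median of -1.34, without WT TAC 3, and 30 without both KO TAC 1 and WT TAC 3. Of all genes tested, 10.35% were lower at that p without WT TAC 3 and 7.23% without both libraries. Of 43 nuclear genes of the respiratory chain, 40 had a negative sign, 0 passed an unadjusted p of 0.05 and the median was -0.33. It was -0.13 without KO TAC 1 and -0.64, with 10 lower, without WT TAC 3, where 10.35% of all genes tested were lower. Fitting the share of ribosomal protein transcripts as a covariate turned the direction, giving 30 positive signs and a median of 0.08. Of 12 mitochondrially encoded genes tested, 11 had a positive sign, with a median of 0.26. Fatty acid oxidation (37 genes, median 0.07) and citric acid cycle and branched chain amino acid genes (35 genes, median 0.03) had 0 members at that p in either direction.

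In oxidative stress and heat shock genes, 1 of 31 was higher and 3 were lower at an unadjusted p below 0.05 (3.34% and 3.02% of all genes tested). Signs were 16 positive and 15 negative, with a median of 0.009. The NRF2 targets Nqo1, Hmox1 and Srxn1 were the lower 3, at -1.03 ± 0.43, -1.10 ± 0.44 and -1.18 ± 0.43. Of further NRF2 targets on the list, Gclm, Gclc, Txnrd1 and Slc7a11 were not at that p in either direction. Nqo1 had 51.6, 122.2 and 89.7 CPM in KO TAC and 191.4, 270.1 and 77.7 CPM in WT TAC libraries, with WT TAC 3 inside the KO TAC range. Hsph1, a chaperone, had 32.3, 19.3 and 43.2 CPM in KO TAC and 12.1, 8.24 and 23.7 CPM in WT TAC libraries. Perp, of the p53 targets, had 84.5, 271.5 and 237.0 CPM in KO TAC and 994.7, 607.4 and 199.4 CPM in WT TAC libraries, and Cdkn1a, the cell cycle inhibitor p21, differed by -0.08 ± 0.41. The 4 haemoglobin genes differed among themselves. Hbb-bs had 121.6, 527.7 and 1831 CPM in KO TAC and 2249, 903 and 189.5 CPM in WT TAC libraries. Hba-a2, near-identical to Hba-a1, so that reads can be split between them in either way, had 35.5, 24.4 and 177 CPM in KO TAC and 1.07, 0.701 and 12.8 CPM in WT TAC libraries. All 3 KO TAC values of Hba-a2 lay above all WT TAC values, with a log2 fold change of 4.01 ± 1.51 (edgeR adjusted p = 0.747). Hba-a2 passes the filter on low counts, yet its edgeR adjusted p without that filter was 1.30e-23, at the same fold change of 4.01. Why the p fell was not tested, and it is not read as a call. Hba-a1 and Hbb-bt overlapped, at -0.58 ± 0.74 and -0.28 ± 0.90, as did Hbb-bs.

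The other lists had few members at an unadjusted p below 0.05, where 3.34% of all genes tested were higher and 3.02% lower. The number was 0 in either direction for 26 glycolysis genes (median -0.19), 27 immediate early genes (0.06), 17 ERK feedback genes (0.02), 19 integrated stress genes (-0.24), 25 mature cardiomyocyte genes (0.03), 6 atrial markers (-0.16) and 8 Schwann cell markers (0.35). Of 19 circadian genes 1 was lower (median -0.08), the repressor gene Cry1, with 5.62, 8.67 and 8.58 CPM in KO TAC and 15.9, 13.3 and 8.72 CPM in WT TAC libraries. Of 16 mural cell markers 1 was lower (median 0.39), which was Des, and Rgs5, a pericyte gene, lay above without overlap, with 532, 748 and 836 CPM in KO TAC and 496, 468 and 462 CPM in WT TAC libraries. Of 8 epicardial markers 5 were tested, and the 2 lower ones, Msln and Upk3b, passed the filter only with WT TAC libraries. Of 9 neutrophil and mast cell markers 1 was higher (0.58), and of 8 red blood cell markers 1 was higher (0.26).

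Whether the difference between KO and WT after TAC was unlike that after sham was tested as an interaction. By edgeR 0 genes (0%) passed an adjusted p of 0.05, and 434 (2.97%) had an unadjusted p below 0.05, while DESeq2 called 2, Il1b and 2610507I01Rik. The smallest edgeR adjusted p was 0.423. Mylpf had an interaction of -5.73 ± 1.23, with 1.30, 1.03 and 1.32 CPM in KO sham and 0.0625 and 0.0787 CPM in WT sham libraries. Both WT sham values lay below the level of 3 counts, 0.174 and 0.189 CPM before TMM scaling. The size of this interaction therefore rests on very few counts. For Cpxm2, a carboxypeptidase-like matrix protein, it was 2.51 ± 0.67, from 11.9, 18.7 and 12.4 CPM in KO TAC and 5.36, 22.0 and 20.9 CPM in WT TAC, 6.67, 7.78 and 13.3 CPM in KO sham and 68.8 and 50.4 CPM in WT sham libraries. For Lmnb2 the interaction was 1.90 ± 0.84 (edgeR adjusted p = 0.992). In sham hearts 0 genes were called between the genotypes and 185 (1.27%) had an unadjusted p below 0.05. The sham values have 2 WT-labelled libraries, both of males, the second of them labelled WT alone. Leaving out either would leave 1 library in that group, so no count is given for it. Without KO sham 1, 2 or 3 the interaction had 256, 351 and 355 genes at an unadjusted p below 0.05.

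Genes near Lmnb2 on chromosome 10 were looked at as the surroundings of the edited locus. Within 1 Mb, 90 genes were tested, 0 were called, 4 were higher and 4 lower at an unadjusted p below 0.05, where 3.34% and 3.02% of all genes were, and the median was 0.15. Within 5 Mb, 175 were tested, with 6 higher and 9 lower and a median of 0.10.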

How the data were processed

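Counts per Ensembl gene were deposited by the authors for all 11 libraries, as raw whole numbers with 1 column per library (0 columns were left out). Per the submitters' processing notes they used STAR 2.5.1, featureCounts and DESeq2 with build GRCm38. No source used here gives the annotation, strand setting or treatment of multiply aligned reads, so overlapping genes, antisense genes and near-identical copies are uncertain. Of 46517 identifiers, 46005 matched GENCODE M21 and 512, with 0.0198% of counts, did not. Totals in genes ran from 14770383 to 17333227.

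In R 4.3.3, filterByExpr chose the genes, TMM scaled the libraries, and edgeR 4.0.16 fitted the means of the 4 groups by its quasi-likelihood method (glmQLFit and glmQLFTest), sham libraries included. The contrasts were KO TAC minus WT TAC and the interaction with surgery, 2-sided, with Benjamini-Hochberg adjustment over 14619 genes and a threshold of 0.05. Standard errors are the fold change over the root of F and are approximate. The fit was tested on simulated data with 100 genes changed 2-fold and 100 changed 4-fold in KO TAC. At the spread seen in these libraries it called 0 of the 100 2-fold and 50 of the 100 4-fold changes. The lack of calls between KO TAC and WT TAC therefore does not show that the groups are alike. DESeq2 1.42.0 and voom of limma 3.58.1, other scalings, filters, covariates (the letter M or F ending each title, taken as sex) and left-out libraries were alternatives. RefSeq promoter windows came from GRCm38.p6.

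The comparison and the 34 gene lists were chosen with earlier results of these data known. The rule for named genes took the lamins and Gh, 8 load genes, the 12 higher and 12 lower genes with the smallest p at 1 CPM or more without overlap (predicted, ribosomal protein and mitochondrially encoded genes aside), up to 3 members per list with at least 5 tested, and 3 genes per direction for the interaction. Other genes, such as Aurka, Mki67, Kif11, Rtp4, Rsad2, Isg15, Fbn1, Edn1, Ccn2, Des, Cx3cr1, Nup85, Rpl3, Aplnr and Cxcr6, were named after their values were seen. Not every gene picked by this rule is reported here.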

Additional observations from a re-analysis of the deposited data

How the results depend on the processing

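No paired analysis was possible because the replicate numbers follow accession order and nothing in the labels pairs the samples. Adjusted calls between KO TAC and WT TAC numbered 0 with all libraries, in limma-voom, under each scaling, with each covariate, in the TAC libraries or males alone, and without any 1 library. They numbered 6 in DESeq2, 206 without a filter on low counts, and 14 without both KO TAC 1 and WT TAC 3, where Myh7 turned to 2.43. Interaction calls numbered 2 in DESeq2, 80 without the filter and 1 without both libraries. Genes at an unadjusted p below 0.05 numbered 930 with all libraries, 2034 without the filter, 430 in the TAC libraries alone, 326 in males alone, 1890 without both libraries, and 439 to 3029 without any 1 library. For the interaction they numbered 434, 1276 without the filter, 228 in males alone, 1359 without both libraries, and 256 to 1633 without any 1 library.

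With library totals the list medians were 0.20 for fatty acid oxidation, 0.13 for heat shock and oxidative stress, 0.085 for p53 targets and 0.15 for citric acid cycle genes. In the TAC libraries alone they were 0.12 for cytokines and -1.76 for skeletal muscle markers. With ribosomal protein transcripts as a covariate they were -0.0013 for integrated stress, -0.11 for mature cardiomyocyte, 1.57 for neutrophil and mast cell and 0.014 for Schwann cell genes. In males alone they were -0.58 for atrial, 0.50 for lymphocyte and 0.13 for Schwann cell markers. Without both libraries they were -2.96 for adipocyte, 0.0898 for atrial, 1.85 for lymphocyte and 0.54 for Schwann cell markers. The cause of these shifts was not tested. Adipocyte, cytokine, epicardial, erythrocyte, growth factor and lymphocyte medians include members that passed the filter only through 1 TAC group.

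Without any 1 library, the fold change of Lmnb2 ran from -0.066 to 1.24, and list medians ran from -6.87 to -3.55 for adipocyte, -0.54 to 0.15 for atrial, 0.29 to 0.9996 for cell cycle, -0.11 to 0.30 for ERK feedback, -1.001 to 0.95 for erythrocyte, -0.032 to 0.24 for fatty acid oxidation, -0.15 to 0.018 for heat shock, -0.49 to -0.21 for hypertrophy, -0.16 to 0.10 for mature cardiomyocyte, -0.12 to 0.21 for nuclear pore, 0.15 to 0.58 for Schwann cell, -1.75 to -0.71 for skeletal muscle and -0.11 to 0.13 for transport receptor genes. They also ran from -0.38 to 0.24 for macrophage, 0.10 to 0.84 for endothelial, 0.23 to 0.60 for cytokine, -0.64 to -0.13 for respiratory chain, -1.34 to -0.18 for ribosomal protein, -0.18 to 0.57 for ion channel, -0.015 to 0.20 for lamina, -0.20 to 0.18 for circadian, -0.21 to 0.17 for immediate early, -0.18 to 0.10 for growth factor, -0.084 to 0.028 for p53, -0.24 to 0.11 for epicardial, -0.067 to 1.10 for neutrophil and mast cell, and -0.021 to 0.077 for citric acid cycle genes. Of 127 named genes, 114 kept their sign in each of the 22 alternatives that tested them. With 3 libraries against 3, an exact permutation test of 1 value cannot reach a p below 0.1.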
